A study of Homo sapiens with 6 samples.

Results

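The genes described here encode the subunits of the 2 particles of the proteasome. They are 32 of the 19775 genes that had a probe set of their own on the arrays. They were chosen by symbol, as PSMA, PSMB, PSMC or PSMD followed by a number, with the immunoproteasome genes PSMB8 and PSMB9 left out and each gene represented by its brightest probe set over the 6 arrays. The core particle has 15 of them, 7 of the alpha ring and 8 of the beta ring. The regulatory particle has 17, of which 5 encode ATPases and 12 do not; among the 12, PSMD5, PSMD9 and PSMD10 encode assembly chaperones that are not part of the finished particle. PSMA6 was read only by probe sets that name another gene as well, and PSMB11, PSMC5, PSMD7 and PSMD13 were not analysed here.

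The arrays were made from BL2, an established line of human Burkitt lymphoma cells, electroporated with LEF1 siRNA (a pool of 4 siRNAs, 3 arrays) or with scrambled siRNA (3 arrays). The labels give 3 batches, each with 1 array of either group, and the design text calls the replicates biological. Both groups were electroporated and received siRNA, and cells without electroporation were not analysed here. LEF1 is a transcription factor through which beta-catenin acts on Wnt target genes, and the comparison asks which transcripts differ once it is lowered. Values are deposited log2 expression values per probe set, so a difference of 1 is a doubling of signal.

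The proteasome degrades proteins that carry chains of ubiquitin. Its core particle is a barrel of outer alpha rings and inner beta rings, and the proteolytic sites face the inside of the barrel. The regulatory particle caps the barrel: its ATPases unfold the substrate and thread it in, and its other subunits bind ubiquitin chains and remove them. In mammalian cells the subunit genes are known to be induced together by the transcription factor NRF1, encoded by NFE2L1, when proteasome activity is too low. Lymphoid cells also make immunoproteasome subunits, which replace the catalytic subunits of the beta ring.

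Sequences before the RefSeq gene starts (GRCh38.p14) are shown for 4 members. PSMA8 is the only one that passed the test at its brightest probe set, PSMD3 had the most negative difference, and PSMB5 and PSMB10 are catalytic subunits whose window holds the core letters of a TCF/LEF site. Each run is the 150 bases before the start, 5′ to 3′ on the gene's strand. Capitals mark TGACNNNGC, the core of an antioxidant response element, in PSMD3. In PSMB5 and PSMB10 they mark CTTTGA, the TCF/LEF core, on either strand.
PSMA8 (chr18:26133719-26133868, plus strand): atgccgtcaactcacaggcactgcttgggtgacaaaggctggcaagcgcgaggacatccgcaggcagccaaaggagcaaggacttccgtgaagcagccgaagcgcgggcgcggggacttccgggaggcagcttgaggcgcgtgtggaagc
PSMD3 (chr17:39980657-39980806, plus strand): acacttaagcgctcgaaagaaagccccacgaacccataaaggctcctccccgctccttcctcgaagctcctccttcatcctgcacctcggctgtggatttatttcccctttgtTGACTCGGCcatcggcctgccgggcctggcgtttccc
PSMB5 (chr14:23035221-23035370, minus strand): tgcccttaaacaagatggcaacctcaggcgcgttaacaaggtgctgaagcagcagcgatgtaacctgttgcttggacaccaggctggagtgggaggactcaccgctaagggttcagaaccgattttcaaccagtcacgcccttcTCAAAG
PSMB10 (chr16:67936851-67937000, minus strand): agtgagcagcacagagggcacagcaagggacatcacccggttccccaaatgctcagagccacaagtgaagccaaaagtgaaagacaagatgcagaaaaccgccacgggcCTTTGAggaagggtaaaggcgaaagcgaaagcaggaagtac

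Of the 32 members, 27 had a promoter in the RefSeq table, which runs from 250 bases before to 50 bases after the start. Both strands were searched for 5 motifs. TGACNNNGC was found in 7 of the 27, or 25.9%, against 13.3% of all 35116 promoters. Of the 7, 6 were grouped with the regulatory particle, among them the assembly chaperone genes PSMD5 and PSMD9. The members without a promoter were PSMA7, PSMB1, PSMB6 and PSMB7 of the core particle and PSMD4 of the regulatory particle. The particles were thus not equally covered. CTTTGA was found in 4 (PSMA3, PSMB5, PSMB10 and PSMC1), or 14.8%, against 12.9% of all promoters. CCAAT, the core of an NF-Y site, was in 13, or 48.1%, against 34.6%. The E-box CACGTG was in 2, or 7.41%, against 7.26%, and the nuclear respiratory factor (alpha-PAL) site was in 1, or 3.7%, against 1.24%. CTTTGA and TGACNNNGC can overlap, since the one ends and the other begins with TGA. These matches describe letters, not bound sites.

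LEF1 was the check of the labels. At its brightest probe set it read 8.21, 8.09 and 8.67 with LEF1 siRNA in batches 1, 2 and 3, against 11.09, 10.58 and 11.45 with scrambled siRNA. The groups lay far apart there, with a difference of -2.71 and 15.2% of the signal left (limma adjusted p = 0.0213 without block and 7.46e-11 with batch as block). The dimmer LEF1 probe sets differed by less, -1.84 and -0.29, each with every LEF1 siRNA array below every scrambled one. Their limma adjusted p-values were 0.00418 and 0.284 without block, and 8.51e-10 and 0.00695 with batch as block. The size of the fall thus depended on the probe set. The 7 B cell markers measured read 9.44 to 14.2, whereas T and NK cell, myeloid and epithelial markers read 6.14 to 7.09, where the median over all probe sets was 6.91.

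Proteasome subunit transcripts were abundant in both groups. Of the 32 members, 29 lay above the 90th percentile of level of all probe sets, and none lay below the median. PSMB4, a beta ring subunit without a proteolytic site, was the member with the brightest signal. It read 12.91, 12.77 and 12.95 with LEF1 siRNA against 12.78, 12.69 and 13.08 with scrambled siRNA, and the groups overlapped. The next brightest was PSMA1, an alpha ring subunit, at 12.62, 12.51 and 12.57 with LEF1 siRNA against 12.64, 12.63 and 12.65 with scrambled siRNA. Its LEF1 siRNA arrays all lay below the scrambled ones, by 0.07 on average (limma adjusted p = 0.878 without block and 0.631 with batch as block). PSMA8 and PSMB10 had the dimmest probe sets. The plot of levels by array shows that arrays of batch 3 were often the highest of their group.

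**Figure D1:**
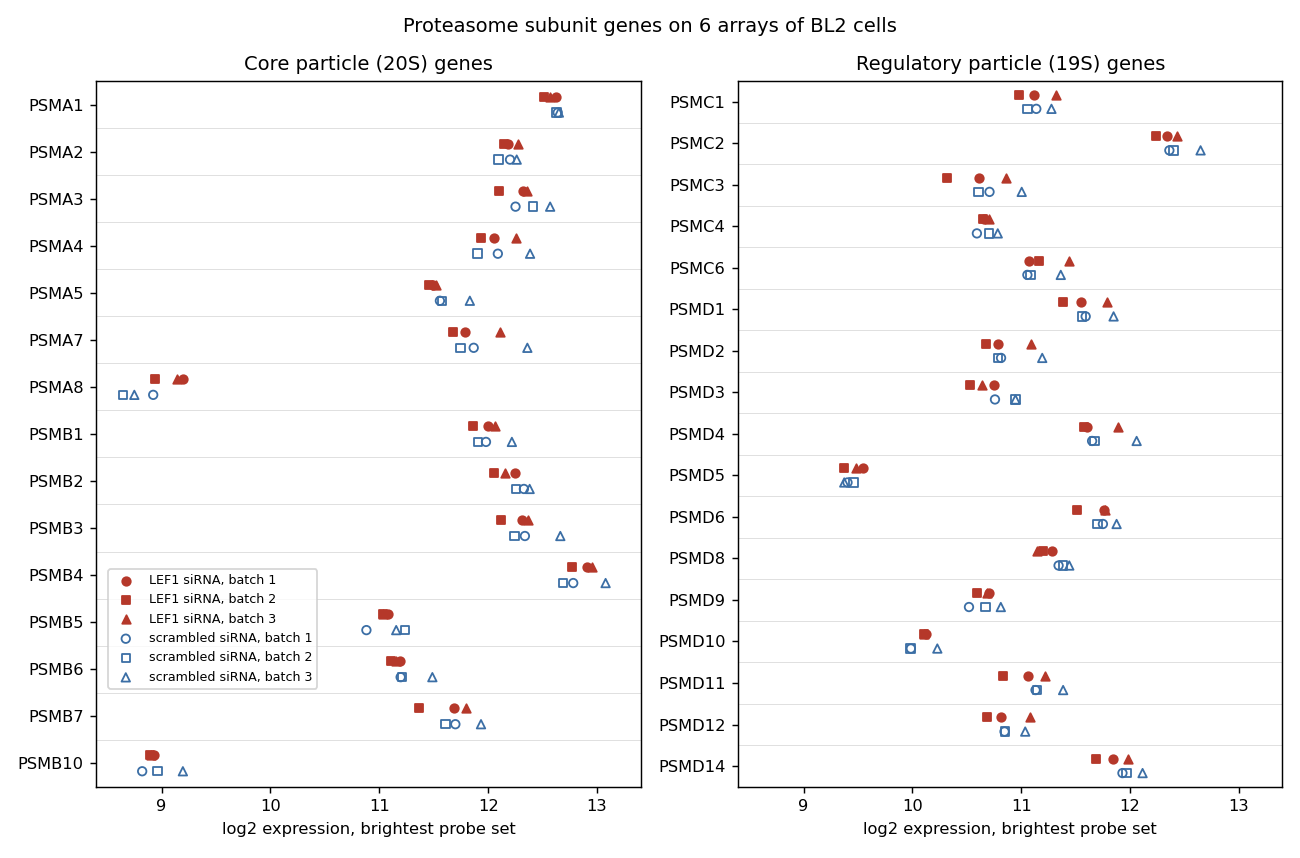
Log2 expression (x axis) of the 32 proteasome subunit genes on each of the 6 arrays, with the core particle on the left and the regulatory particle on the right. Filled red symbols are LEF1 siRNA arrays and open blue symbols scrambled siRNA arrays, with circles, squares and triangles for batches 1, 2 and 3; for 25 of the 32 genes the symbols of the groups overlap.

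No member passed the threshold without block, and 1 passed with batch as block. Without block, 0 of 32 members passed in limma over all 54613 probe sets (lowest adjusted p = 0.36), of which 10, or 0.0183%, passed. At an unadjusted p under 0.05, 1 member was higher and 3 were lower, where 7.6% of all 19775 genes were higher and 2.29% lower at their brightest probe set. With batch as block, 3328 probe sets passed, or 6.09%. Among the members PSMA8 was higher and none was lower, where 6.73% of genes passed as higher and 1.7% as lower. Of the 2574 genes at a level of 8 to 9, where PSMA8 lies, 401 passed as higher and 58 as lower. At an unadjusted p under 0.05 in the fit with batch as block, 1 member was higher and 13 were lower, against 15.2% and 5.92% of genes. Of the 2615 genes at a level of 10 or above, where 29 members lie, 564 were higher and 468 lower. Without block these numbers were 253 and 168. The 13 members comprised 7 genes of the core particle and 6 of the regulatory particle.

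With batch as block, PSMA8 rose in LEF1 siRNA cells. It encodes the testis-specific counterpart of the alpha ring subunit PSMA7, and its gene lies at chr18:26133869-26193355. It read 9.19, 8.94 and 9.14 with LEF1 siRNA against 8.92, 8.65 and 8.75 with scrambled siRNA. Each LEF1 siRNA array lay above every scrambled array. That was so for 432 of the 2574 genes at a level of 8 to 9, and 1080 of the 2574 were higher in all 3 batches. The mean was 9.09 ± 0.14 with LEF1 siRNA and 8.77 ± 0.14 with scrambled siRNA (SD, n = 3 each). The difference was 0.32 on the log2 scale, with a 95% interval of 0.20 to 0.44 with batch as block, or 125% of the scrambled signal. It was 0.27, 0.29 and 0.40 in batches 1, 2 and 3 (limma adjusted p = 0.36 without block and 0.00427 with batch as block). The cultures were measured in bulk, so more cells that carry a transcript and more of it per cell cannot be told apart. The gene had 1 probe set, so no other probe set could be set beside it, and its counterpart PSMA7 differed by -0.13 (limma adjusted p = 0.27 with batch as block).

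The 4 catalytic genes of the beta ring did not pass in either fit. PSMB5, which carries the chymotrypsin-like activity, read 11.08, 11.03 and 11.03 with LEF1 siRNA against 10.88, 11.24 and 11.15 with scrambled siRNA. Its LEF1 siRNA arrays lay inside the range of the scrambled ones, and the batch differences of 0.20, -0.20 and -0.12 did not share a sign. PSMB6, which carries the caspase-like activity, read 11.19, 11.10 and 11.16 with LEF1 siRNA against 11.20, 11.21 and 11.49 with scrambled siRNA. Every LEF1 siRNA array was below every scrambled one, yet the difference of -0.15 was mainly that of batch 3, at -0.33 (limma adjusted p = 0.791 without block and 0.273 with batch as block). PSMB7, which carries the trypsin-like activity, read 11.69, 11.37 and 11.79 with LEF1 siRNA against 11.70, 11.61 and 11.93 with scrambled siRNA. The groups overlapped, and the difference was -0.13 (limma adjusted p = 0.911 without block and 0.288 with batch as block). PSMB10, the immunoproteasome counterpart of PSMB7, read 8.93, 8.89 and 8.91 with LEF1 siRNA against 8.82, 8.96 and 9.20 with scrambled siRNA. The groups overlapped and the batch differences were 0.11, -0.07 and -0.29, a mean of -0.09 (limma adjusted p = 0.934 and 0.64). PSMB5 and PSMB10, with TCF/LEF core letters in the windows printed above, had mixed signs over the batches. So did 14 of the 32 members and 11908 of all 19775 genes, and any part of the letters was not tested.

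Among the other core particle genes, differences ran from -0.17 to 0.03. The most negative were PSMB2, at -0.17 with a 95% interval of -0.30 to -0.05, and PSMA5, at -0.17 (limma adjusted p = 0.109 and 0.165 with batch as block). Both had every LEF1 siRNA array below every scrambled one at these brightest probe sets. The further, dimmer probe sets of PSMB2 differed by 0.07, 0.04 and -0.02, and that of PSMA5 by 0.01. PSMA3 and PSMB3 each differed by -0.15, PSMB1 by -0.06 and PSMA4 by -0.05. PSMA2 and PSMB4 were the core genes nearest to equal, at 0.01 and 0.03, with 95% intervals of -0.11 to 0.13 and -0.11 to 0.16.

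In the regulatory particle no gene passed at its brightest probe set. PSMD3, a subunit of the lid at chr17:39980807-39997959, had the most negative difference. It read 10.75, 10.53 and 10.64 with LEF1 siRNA against 10.76, 10.95 and 10.95 with scrambled siRNA. The groups did not overlap, but batch 1 was nearly equal: the batch differences were -0.01, -0.42 and -0.31. The mean of -0.25, or 84.3% of the scrambled signal, had a 95% interval of -0.40 to -0.09 with batch as block (limma adjusted p = 0.439 without block and 0.0634 with batch as block). That adjusted p lay close to the threshold, and it was 0.0276 after quantile normalization, 0.0359 after cyclic loess, 0.0489 without dim probe sets and 0.000969 without batch 1. It was 0.0615 with equal array medians, 0.0856 with trended robust eBayes and 0.0894 without batch 3. Without batch 2 it was 0.45, and the difference was -0.16.

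The difference closest to 0 was that of PSMD9, an assembly chaperone of the ATPase ring, at -0.01. It read 10.70, 10.60 and 10.68 with LEF1 siRNA against 10.52, 10.67 and 10.81 with scrambled siRNA. The groups overlapped, and the batch differences of 0.18, -0.08 and -0.13 did not share a sign (limma adjusted p = 0.995 without block and 0.976 with batch as block). The other chaperones with PSMD symbols, PSMD5 and PSMD10, differed by 0.05 each. Lid subunits PSMD8, PSMD11 and PSMD14 differed by -0.18, -0.18 and -0.17, and PSMD14 is the deubiquitinase that removes the ubiquitin chain. Limma adjusted p-values of these with batch as block were 0.117, 0.117 and 0.128. PSMD6 and PSMD12, also of the lid, differed by -0.10 and -0.05, the ubiquitin receptor gene PSMD4 by -0.10 and the base scaffolds PSMD1 and PSMD2 by -0.09 and -0.08.

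The 5 ATPase genes ran from -0.18 for PSMC3 to 0.06 for PSMC6 at their brightest probe sets. The probe sets of PSMC2 differed in sign, as did those of other members with several, such as PSMD4 (-0.10 and 0.07 at its brighter ones) and PSMD12 (-0.05 and 0.12). The brightest of PSMC2 differed by -0.14 and the next by 0.08 (limma adjusted p = 0.248 and 0.57 with batch as block). The dimmest of its 3 read 8.68, 8.51 and 8.57 with LEF1 siRNA against 8.34, 7.77 and 8.35 with scrambled siRNA. The groups did not overlap there, and the rise of 0.44 passed with batch as block (limma adjusted p = 0.00555) and not without (0.465). The low scrambled array of batch 2 gave a batch difference of 0.74, against 0.34 and 0.22 in batches 1 and 3, and without batch 2 the adjusted p was 0.0505. Which PSMC2 transcripts each probe set reads was not tested.

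**Figure D2:**
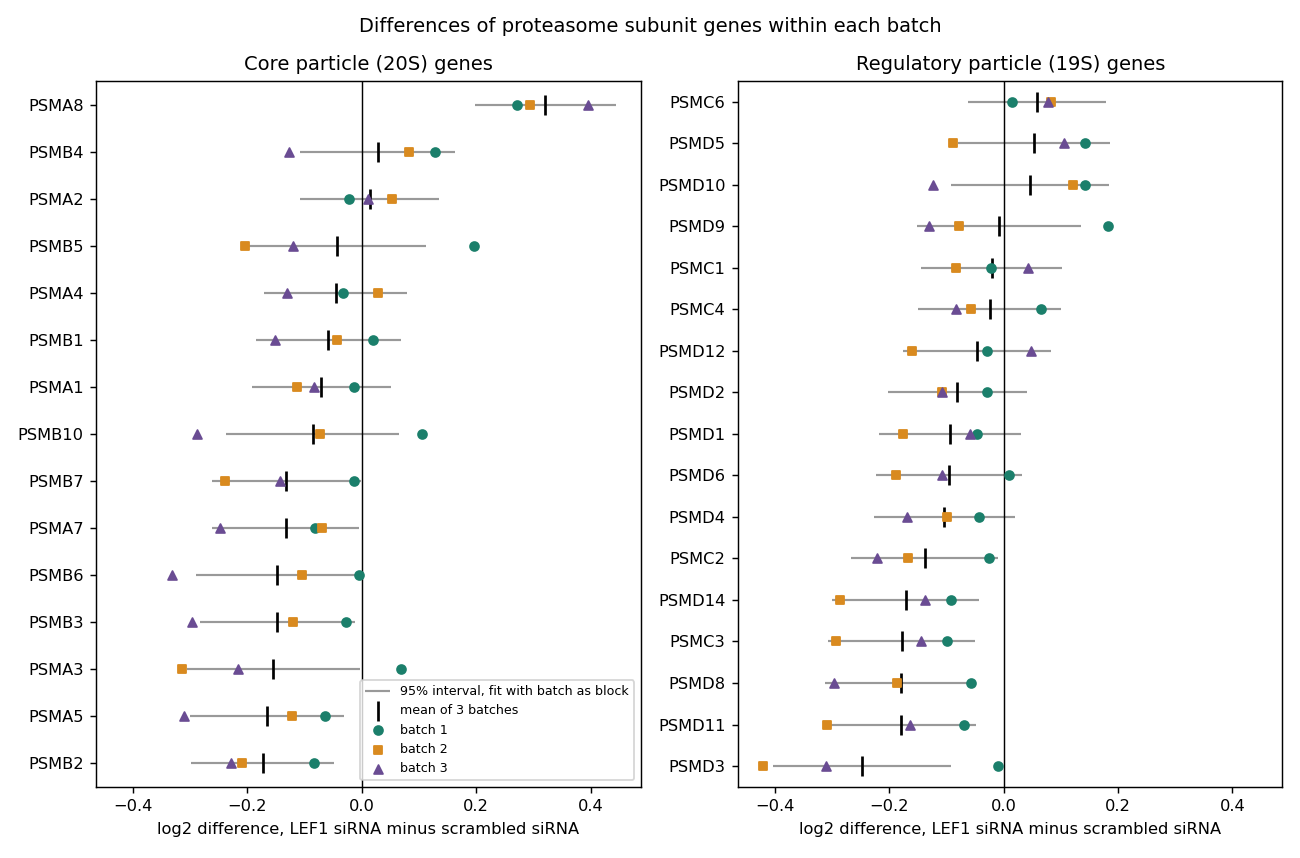
Log2 difference, LEF1 siRNA minus scrambled siRNA (x axis), of each core particle gene (left) and regulatory particle gene (right), ordered by the mean. Coloured symbols are batches 1, 2 and 3, black ticks the mean of the 3 batches and grey lines the 95% interval of the fit with batch as block; PSMA8 stands at 0.32 and PSMD3 at -0.25, and 26 of the 32 means lie below 0.

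Small negative differences were common among the members. The mean difference was below 0 for 26 of 32, 12 of 15 in the core and 14 of 17 in the regulatory particle, where 40.8% of all genes were below 0. Lower in all 3 batches were 16 members, 7 of the core and 9 of the regulatory particle, where 13.7% of genes were. Higher in all 3 batches were PSMA8 and PSMC6, where 26% of genes were. Groups without overlap were seen for 6 members below (PSMA1, PSMA5, PSMB2, PSMB6, PSMD3 and PSMD8), where 4.03% of genes had them, and for PSMA8 above, where 9.52% did. The median difference was -0.09 in the core and -0.09 in the regulatory particle, against 0.02 over all genes. With the mean over all probe sets of a gene these were -0.056 and -0.043. Without batch 3 the core median was -0.055, and without batch 2 the regulatory one was -0.053.

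The batches were unequal in this. In batch 1 the median difference of the core was -0.01 and that of the regulatory particle -0.03. In batch 2 these were -0.10 and -0.16, and in batch 3 they were -0.15 and -0.12. On the level scale, the median of the core genes was 12.00, 11.86 and 12.11 on the LEF1 siRNA arrays, against 11.98, 11.90 and 12.26 on the scrambled arrays. The median of the regulatory genes was 11.06, 10.84 and 11.15 with LEF1 siRNA against 11.06, 11.06 and 11.28 with scrambled siRNA.

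Level moved with the difference. Over all genes at a level of 12 or above (495 genes), the median difference was 0.05, -0.03 and -0.15 in batches 1, 2 and 3. At a level from 11 to 12 (766 genes) it was 0.05, -0.01 and -0.06. In batch 3 the core median of -0.15 was thus the same, to 2 decimals, as that of genes at 12 or above. In batches 1 and 2 the medians of both particles were below those of genes at either level. The 29 members at a level of 10 or above had a median difference of -0.10, against 0.00 for the 2615 genes at that level. Of these 29 members, 25 were below 0, 16 were lower in all 3 batches and 6 had groups without overlap below. Of the 2615 genes, 1301 were below 0, 619 were lower in all 3 batches and 160 had groups without overlap below. A measure of RNA quality moved with the groups as well: the log2 ratio of the 3' to the 5' beta-actin control was 0.183, 0.297 and 0.221 with LEF1 siRNA against 0.072, -0.028 and 0.097 with scrambled siRNA. The same ratio for GAPDH was nearly equal within each batch. The part of level and RNA quality in the differences of the members was not tested.

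**Figure D3:**
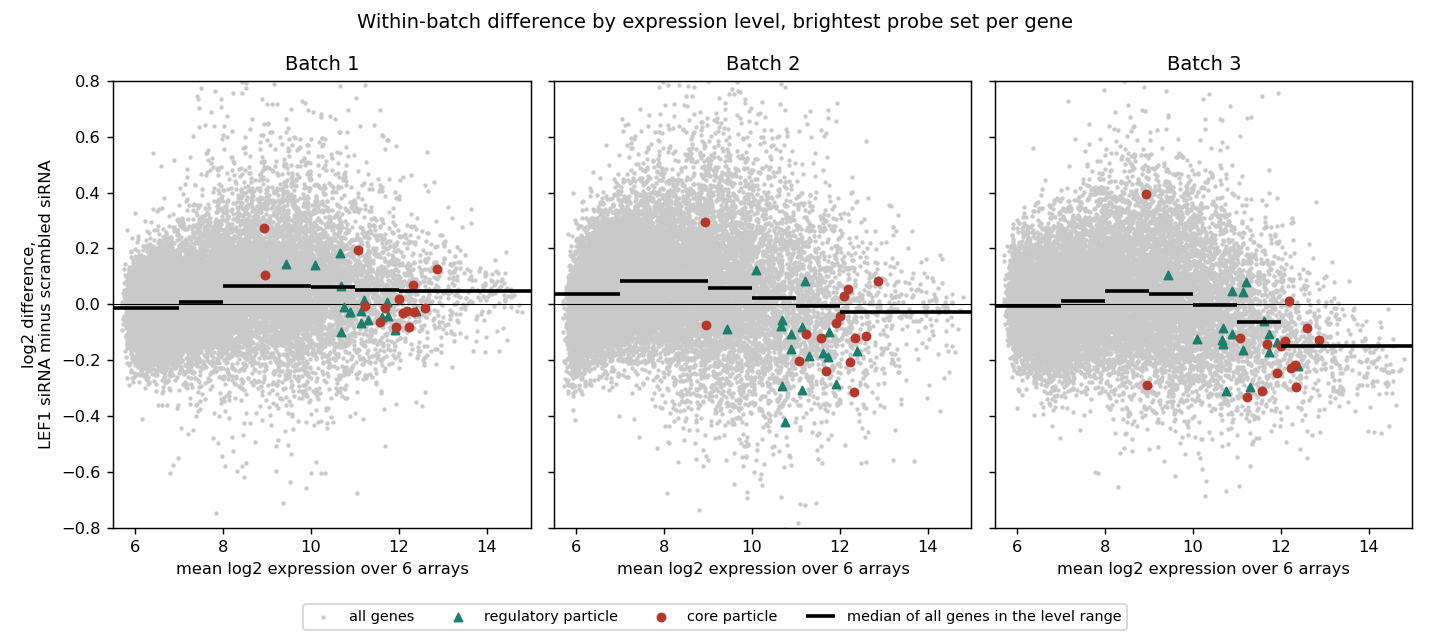
Log2 difference, LEF1 siRNA minus scrambled siRNA (y axis), against mean log2 expression over the 6 arrays (x axis), 1 panel per batch. Grey dots are all genes at their brightest probe set (25, 26 and 6 of them lie outside the axis in batches 1, 2 and 3), green triangles the regulatory and red circles the core particle, and black lines the median of all genes in each level range, which reaches -0.15 for the brightest genes in batch 3.

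The scaling set how many members passed. Of the 3328 calls on the deposited scale 75.2% were higher, against 66.2% with equal array medians, 60.1% after cyclic loess, 56.1% after quantile normalization and 971 of 8797 with poly-A scaling. Scaled to the 24 probe sets of the poly-A spike-ins (dap, lys, phe and thr), the median of all probe sets was -0.11, and 18 members were lower and PSMA8 higher with batch as block, where 14.3% of probe sets were lower. The members' median was then -0.21. PSMA8 passed in each of 11 other settings of the fit with batch as block (limma adjusted p = 0.00192 to 0.039). As PSMA8 has 1 probe set, the settings for the choice of probe set could not change its difference. Without batch 1, 1212 of 54613 probe sets passed as lower and 2668 as higher. PSMA3, PSMD3 and PSMD8 then also passed, as lower (limma adjusted p = 0.0237, 0.000969 and 0.0467). None of these 3 passed without batch 2 (limma adjusted p = 0.825, 0.45 and 0.34), where PSMA3 differed by -0.07, or without batch 3 (0.5, 0.0894 and 0.49).

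Further probe sets of the members had a median difference nearer to 0. The 27 of them, which included 8 below the median level, had a median of -0.01, and 1 passed with batch as block, the dimmest of PSMC2. Their median level was 9.15, against 11.44 for the members. At a level of 10 or above, those of PSMA1 (-0.05 and -0.16), PSMA7 (-0.03), PSMB1 (-0.07), PSMB4 (-0.10) and PSMD1 (-0.18) were below 0. At that level PSMC2 had 0.08, and PSMD4 had 0.07 and -0.13. For PSMA1, PSMB4, PSMB7 and PSMD9, the members given in full that had further probe sets, these ran from -0.16 to 0.11. PSMA6, an alpha ring gene read only together with PRORP, differed by -0.15 at the brighter of 2 probe sets.

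Other genes of the ubiquitin-proteasome pathway were taken from 8 lists, of which 37 of 44 genes were measured. Without block 0 of the 37 passed (lowest limma adjusted p = 0.384, and 1 higher and 4 lower at an unadjusted p under 0.05, where 7.6% and 2.29% of all genes were). With batch as block 2 rose and 3 fell, where 6.73% of all genes passed as higher and 1.7% as lower. The median level of the 37 was 10.7. Of the 2615 genes at a level of 10 or above, 264 passed as higher and 159 as lower with batch as block. Without block, 253 of these 2615 were higher and 168 lower at an unadjusted p under 0.05. PSMB8, an immunoproteasome subunit, read 11.13, 11.02 and 11.10 with LEF1 siRNA against 11.24, 11.25 and 11.42 with scrambled siRNA. Its groups did not overlap and it fell by 0.22 (limma adjusted p = 0.0462 with batch as block and 0.418 without). Its partner PSMB9 differed by -0.08.

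Genes for the control of proteasome transcription did not move one way. NFE2L2, which encodes the stress factor NRF2, read 10.62, 10.56 and 11.04 with LEF1 siRNA against 10.36, 10.42 and 10.78 with scrambled siRNA. The groups overlapped because batch 3 was high in both, and within each batch the LEF1 siRNA array was higher. It rose by 0.22 (limma adjusted p = 0.0383 with batch as block and 0.85 without). It did not pass with equal array medians (0.0873), poly-A scaling (0.245) or trended robust eBayes (0.0828). The mean over its 3 probe sets differed by 0.09 (limma adjusted p = 0.327 with batch as block). NFE2L1, which encodes NRF1, differed by -0.14 and NGLY1, the enzyme that removes sugar chains from NRF1, by 0.14 (limma adjusted p = 0.226 and 0.187 with batch as block).

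Differences in both directions were also seen among genes that deliver substrates. UBQLN2, a shuttle factor for ubiquitinated proteins, rose by 0.23 (limma adjusted p = 0.0347 with batch as block and 0.662 without), but passed after none of the 4 other scalings. The mean over its 2 probe sets differed by 0.08 (limma adjusted p = 0.507 with batch as block). UFD1, a cofactor of the VCP segregase, fell by 0.23, and FAF1, another VCP cofactor, fell by 0.22 (limma adjusted p = 0.0328 and 0.0463 with batch as block). The mean over the 5 probe sets of FAF1 differed by -0.14 (limma adjusted p = 0.0872 with batch as block). The deubiquitinase gene UCHL5 differed by -0.16 and ADRM1, a ubiquitin receptor of the regulatory particle, by -0.18, and neither passed (limma adjusted p = 0.122 and 0.151). The assembly chaperones PSMG2, PSMG4 and PSMG1 differed by -0.13, 0.13 and -0.14, and none of the 5 chaperones passed. None of 4 activator and inhibitor genes passed, with PSME4 at 0.04 and PSME3 at -0.04, and none of 3 ubiquitin and E1 genes, with UBA6 at 0.12 and UBB at -0.07. None of the 5 genes that passed did so without batch 2 or without batch 3 (limma adjusted p = 0.0649 to 0.343). The median difference over all 37 genes was -0.03.

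**Figure D4:**
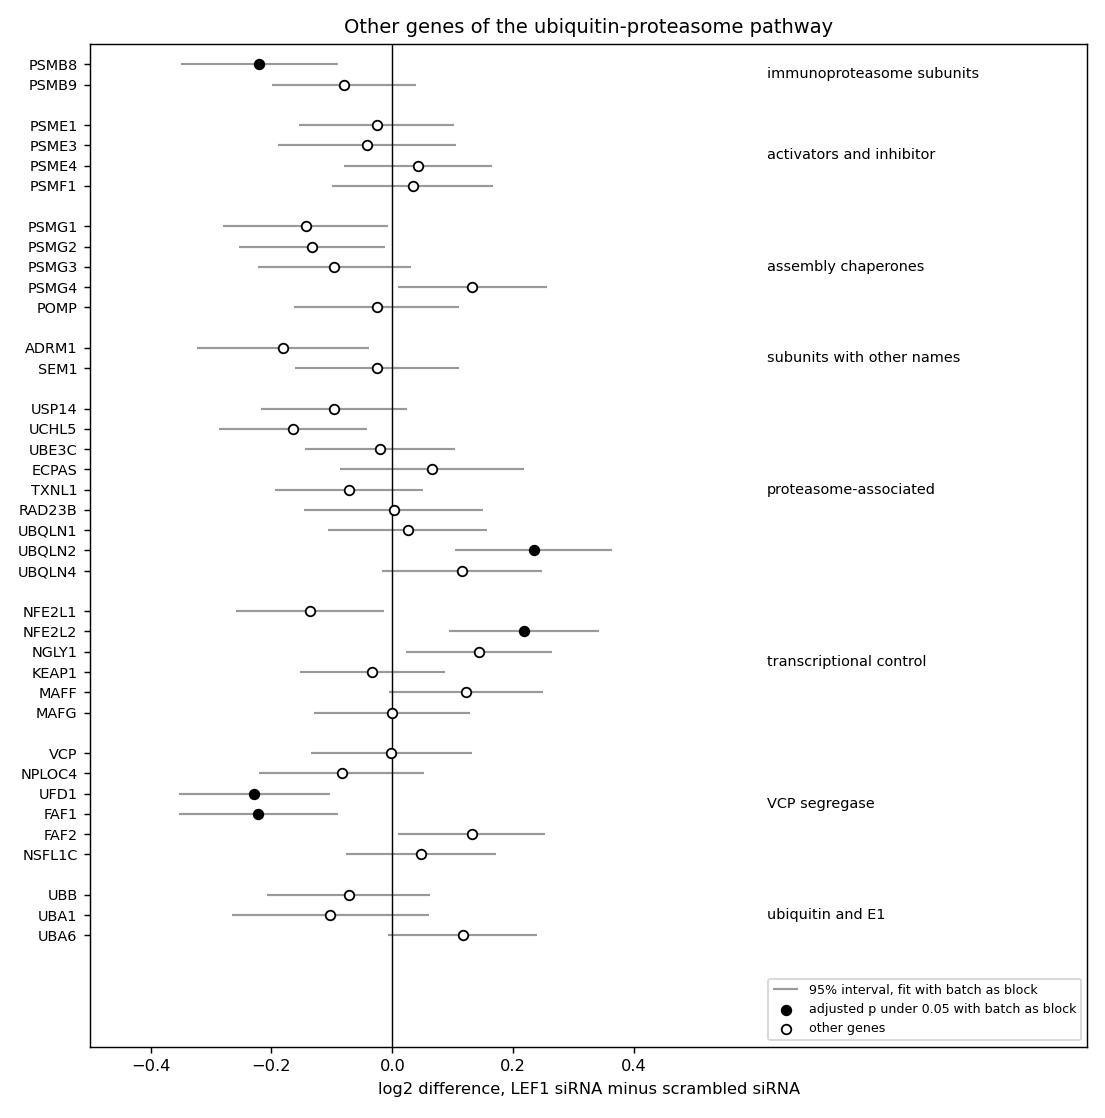
Log2 difference, LEF1 siRNA minus scrambled siRNA (x axis), of 37 other genes of the ubiquitin-proteasome pathway, grouped by list. Circles are means of 3 batches with the 95% interval of the fit with batch as block, and filled circles passed in that fit: UBQLN2 and NFE2L2 to the right of 0, PSMB8, UFD1 and FAF1 to the left.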

How the data were processed

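RNA of 6 BL2 cultures was hybridised to HG-U133 Plus 2.0 arrays after labelling from the 3' end, per the labels' protocols. The authors deposited 1 log2 value per probe set and array (54675 probe sets), read as log2 from the range of the values. The background correction and normalization are not given in the sources used here. The 62 control probe sets were left out. Gene names came from the platform annotation, checked against RefSeq (GRCh38.p14), which changed 0 symbols. Probe sets that name several genes gave no gene a value.

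The fits used limma 3.58.1 (R 4.3.3) over 54613 probe sets, without block and with batch as block, with two-sided p-values, Benjamini-Hochberg adjustment over all of them and a threshold of 0.05. The fits have 4 and 2 residual degrees of freedom, beside 4.07 and 12.0 prior ones, so the fit with batch as block borrows most of its spread from other probe sets. The batch label pairs the arrays. Their deviations around each group's mean correlated within batches, at 0.477, 0.493 and 0.621 across probe sets. Both fits were also run on simulated data, with the spread taken from the fit with batch as block. The changes put in were larger than the difference of any member at its brightest probe set. That run therefore does not show whether calls of the size seen among the members are sound. Members given in full were those past the threshold, the 4 catalytic genes, the ends of the differences, and the 2 brightest and 2 dimmest; from each pathway list up to 3 with the smallest p were named. PSMA2, PSMA3, PSMA5, PSMB2, PSMB3, PSMC2, PSMC3 and the other members were added after their values were seen. The members and lists were chosen with earlier results of these data known. Alternatives covered the block, scaling, dim probe sets, the probe set per gene, eBayes settings, thresholds and left-out arrays or batches. The number of arrays limits the precision.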

Additional observations from a re-analysis of the deposited data

Results flagged for a closer look

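A probe set that names both C7orf25 and PSMA2, and so was not used for PSMA2, read 7.17, 7.12 and 7.25 with LEF1 siRNA against 6.94, 6.79 and 7.09 with scrambled siRNA. The difference was 0.24, with every LEF1 siRNA array above every scrambled one (limma adjusted p = 0.0259 with batch as block and 0.481 without). It stands out as a difference in data outside the probe sets used for the members. The median over all probe sets is 6.91. A brighter probe set that names the same genes, with a mean level of 7.86 against 7.06, differed by -0.02. Its groups overlapped (limma adjusted p = 0.942 with batch as block and 0.988 without). The difference of 0.24 was thus not seen at that brighter probe set. PSMA2 itself differed by 0.01 at its brightest probe set.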

How the results depend on the processing

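PSMA8 kept its direction and passed in each of 11 other settings of the fit with batch as block, and lost its call without block. Some of the 11 could not change its difference of 0.32. These were the choice of probe set, as the gene has 1, the removal of dim probe sets and the eBayes settings. Over all probe sets without block, the 10 calls became 3328 with batch as replicate block, 23 after quantile normalization or cyclic loess, 6 with trended robust eBayes, 2 and 63 at thresholds of 0.01 and 0.1, 0, 0 and 4 without batch 1, 2 or 3, and 0 to 8 without 1 array. With the block, 3328 became 10 without it, 8797 with poly-A scaling, 1418 at a threshold of 0.01, 1407 without batch 2, and 1407 to 3880 without 1 array. In the fit with the block, leaving out 1 array gives the same result as leaving out its batch. The ranges without 1 array in that fit, and for the median differences, therefore repeat those without a batch and are no further check. Core members past the threshold numbered 0 without block and 1 with it. With the block they became 9 with poly-A scaling (8 of them lower) and 2 without batch 1 (1 of them lower). They became 0 without PSMA8 and PSMB10, and 1 to 2 without 1 array. In the same fit 14.3% of all probe sets were lower with poly-A scaling, and 1212 of 54613 were lower without batch 1. Regulatory members numbered 0 with the block, 10 with poly-A scaling (all lower), 2 without batch 1 (PSMD3 and PSMD8, both lower) and 0 to 2 without 1 array. After quantile normalization, after cyclic loess, without dim probe sets and at a threshold of 0.1 the number was 1, PSMD3 as lower. At the most variable probe set it was also 1, but there PSMC2 as higher. The core median difference of -0.09 became -0.20 with poly-A scaling, -0.16 without batch 1, -0.056 with the mean over a gene's probe sets, -0.058 at the most variable probe set, -0.13 without PSMA8 and PSMB10, and -0.16 to -0.055 without 1 array. The regulatory one, also -0.09, became -0.21 with poly-A scaling, -0.043 with the mean over a gene's probe sets, -0.053 without batch 2 and -0.12 to -0.053 without 1 array. LEF1 without block no longer passed without batch 1 (-2.63) or batch 2 (-2.83), at a threshold of 0.01 (-2.71), or without LEF1 siRNA replicate 1 or 2 or scrambled siRNA replicate 1 or 3 (-2.94 to -2.51 without 1 array). The differences of PSMC2 and TXNL1 turned to 0.44 and 0.23 at their most variable probe sets. The calls of NFE2L2 and UBQLN2 were lost in 7 and 8 of these 11 settings, those of FAF1, PSMB8 and UFD1 in 4, 3 and 3. The cause of these changes was not tested.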

Other observations

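PSMA3-AS1, the gene of an RNA antisense to PSMA3, was looked at after values were seen. Its 3 probe sets differed by 0.23, 0.15 and 0.05, and the first had a limma adjusted p of 0.038 with batch as block and 0.804 without. That probe set read 6.53, 6.90 and 7.04 with LEF1 siRNA against 6.40, 6.68 and 6.72 with scrambled siRNA. The groups overlapped, and the median over all probe sets is 6.91.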
